A study of Homo sapiens with 3 samples.

Results

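The regions described are the HDAC1 peak summits that the deposited lists place on chromosome 17 of the human genome (build hg19). They were taken by chromosome name alone, so every summit with that name is a member whatever its score. There were 716 among the 9476 summits of the control list and 865 among the 11553 summits of the H89 list. The cells were HepG2, an established line from a human liver tumour, with the genotype given as WT in all samples. One HDAC1 library came from cells without H89 (control) and 1 from cells with H89, an inhibitor of the cAMP-dependent protein kinase PKA. An IgG library from cells without H89 was not analysed here. The dose and duration of H89 are unstated in the sources used here. The study asked how H89 alters the HDAC1 binding profile, assayed by CUT&Tag, in which an antibody guides a transposase that cuts and tags the DNA next to the bound protein.

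HDAC1 is a histone deacetylase of the class I family. It has no known DNA sequence preference of its own and is brought to promoters and enhancers by the NuRD, Sin3 and CoREST complexes. It is found at active as well as at silenced genes. Chromosome 17 is one of the gene-dense human chromosomes and is known to be present in extra copies in HepG2. Copy number itself was not measured in these files. Its long arm carries ERBB2, BRCA1, the HOXB genes and PRKAR1A, which encodes a regulatory subunit of PKA. Genes are named below only as landmarks known to lie in a band, since no hg19 gene annotation was at hand and no summit was assigned to a gene.

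Each summit is a single base with a score, read as the −log10 of an unadjusted p-value of the peak caller. Read totals are not in the files, so depth is unknown. Each condition has a single library, so no difference below has a replicate check and H89 was not tested against the control. Intervals in brackets are exact 95% intervals, Clopper-Pearson for shares and ratios and Poisson for densities. They cover counting error only and treat summits as independent, although most summits recur in both lists.

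Chromosome 17 was among the chromosomes most densely covered by HDAC1 summits in both libraries. It held 8.82 control summits per Mb (8.18 to 9.49) and 10.7 H89 summits per Mb (9.96 to 11.4). The other autosomes pooled held 2.98 (2.92 to 3.04) and 3.61 (3.54 to 3.69). Among the 22 autosomes and chromosome X it ranked 2 in density, behind chromosome 19 with 11.3 and 14 per Mb, and 3 in number. Chromosome 16 held 6.84 and 8.02 per Mb, and chromosome 20 held 6.93 and 7.97. The share of all primary-chromosome summits that lay on chromosome 17 was 7.77% for the control list and 7.72% for the H89 list, a difference within counting error.

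The H89 library held more summits on chromosome 17 than the control library. The ratio of H89 to control summits was 1.21 (1.09 to 1.34), against 1.21 (1.18 to 1.25) on the other autosomes. The ratio was higher among strong summits. At a score of 5 or more, 263 control and 371 H89 summits gave 1.41 (1.20 to 1.66), against 1.33 (1.27 to 1.39) on the other autosomes. At 10 or more, 44 control and 94 H89 summits gave 2.14 (1.48 to 3.13), against 1.82 (1.64 to 2.03) on the other autosomes. At 20 or more, 4 control and 13 H89 summits gave 3.25, against 2.48 (1.82 to 3.43) on the other autosomes. The interval of the ratio on chromosome 17 was wide, with an upper end of 13.7, and included 2.48. These ratios compare 2 libraries, and treatment, library depth and tagging efficiency cannot be told apart in them.

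The long arm was denser than the short arm. The long arm makes up 70.4% of the chromosome and held 551 control summits (77.0%, 73.7 to 80.0) and 681 H89 summits (78.7%, 75.8 to 81.4). Its density was 9.63 per Mb (8.85 to 10.5) in the control and 11.9 (11.0 to 12.8) with H89. The short arm held 165 control summits, 6.88 per Mb (5.87 to 8.01), and 184 H89 summits, 7.67 per Mb (6.60 to 8.86). The H89 to control ratio was 1.24 (1.10 to 1.39) on the long arm and 1.12 (0.899 to 1.38) on the short arm. The intervals of the ratios overlap, and the difference between the arms was not tested.

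**Figure D1:**
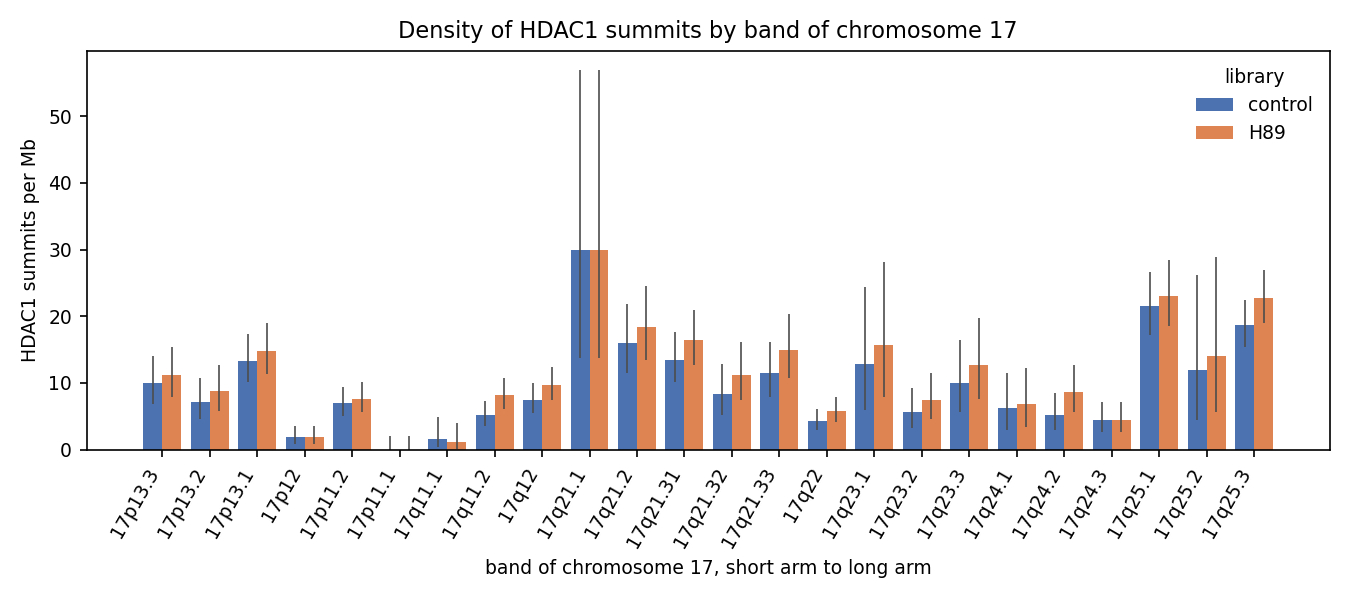
HDAC1 summits per Mb (y axis) in each band of chromosome 17 (x axis), with the control library in blue and the H89 library in orange. Bars are the density and lines its exact Poisson 95% interval. Band 17q21.1, a short band with 9 summits in each list, has the highest bars at 30.0 per Mb and the widest intervals, and among bands with more than 50 control summits 17q25.1 and 17q25.3 are the highest.

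The end of the long arm, 17q25, held the most summits of any block. FASN, the gene of fatty acid synthase, lies there, and so does GRB2, an adaptor of growth factor signalling. It covers 12.7% of the length and held 200 control summits (27.9%, 24.7 to 31.4) and 231 H89 summits (26.7%, 23.8 to 29.8). Its density was 19.4 per Mb (16.8 to 22.3) in the control and 22.4 (19.6 to 25.5) with H89. In 17q25.1 there were 84 control and 90 H89 summits, and their ratio was 1.07 (0.787 to 1.46). In 17q25.3 there were 110 and 134, and the ratio was 1.22 (0.940 to 1.58). The short band 17q25.2 between them held 6 and 7.

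The block 17q21 came next in number. It includes the type I keratin genes and STAT3 in 17q21.2, BRCA1 in 17q21.31, the HOXB cluster of body-axis transcription factors in 17q21.32 and the collagen gene COL1A1 in 17q21.33. The block held 156 control summits, 12.9 per Mb (10.9 to 15.1), and 191 H89 summits, 15.8 per Mb (13.6 to 18.2). Band 17q21.1, where the nuclear receptor genes THRA and NR1D1 lie, is only 0.3 Mb long. It held 9 summits in each list, which is 30.0 per Mb with a wide interval (13.7 to 56.9). Band 17q21.2 held 40 control and 46 H89 summits, 16 and 18.4 per Mb. Band 17q21.31 held 54 and 66, or 13.5 and 16.5 per Mb. The HOXB band 17q21.32 was the sparsest of the block, with 21 and 28 summits, or 8.40 and 11.2 per Mb.

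On the short arm, 17p13 held most of the summits. The block held 112 control and 127 H89 summits, 10.5 and 11.9 per Mb. Within it, 17p13.1 held 56 and 62 (13.3 and 14.8 per Mb), 17p13.3 held 33 and 37, and 17p13.2 held 23 and 28. Band 17p12, where the myelin gene PMP22 lies, was the sparsest band outside the centromere, with 10 summits in each list, or 1.89 per Mb (0.905 to 3.47). Band 17p11.2, which holds SREBF1, the gene of a lipid synthesis regulator, had 43 control and 47 H89 summits. The centromeric band 17p11.1 had none in either list, and 17q11.1 had 3 control and 2 H89 summits. A count of 0 says only that no summit was called there, since centromeric sequence is poorly represented in hg19.

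Between the centromere and 17q21, band 17q11.2, which holds the RAS regulator NF1, had 31 control and 49 H89 summits. Its ratio of 1.58 (0.988 to 2.56) was the highest among bands with at least 30 control summits. Band 17q12, which holds the receptor kinase gene ERBB2, had 47 and 61, a ratio of 1.30 (0.873 to 1.94). Further out, 17q22 held 32 and 43 summits at the low density of 4.32 and 5.81 per Mb. The bands of 17q23 together held 40 and 51, or 8 and 10.2 per Mb. Band 17q24.2, which holds PRKAR1A, had 15 and 25, and its ratio of 1.67 (0.845 to 3.40) was the highest of the chromosome. Band 17q24.3, where the transcription factor gene SOX9 lies, had 17 in each list.

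The H89 list was the longer one in 19 of the 24 bands and the shorter one in 1, 17q11.1. Numbers were equal in 3 bands, and 1 band was empty in both lists. In 0 of the 23 bands with summits did the interval of the ratio leave out 1, or the 1.21 of the whole chromosome. With 2 to 134 summits per band and list these intervals are wide, so they do not show that the bands were alike.

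The density was lower in the more darkly stained bands, but not in the palest stained ones. Giemsa-negative bands, the pale and usually gene-rich ones, make up 51.4% of the chromosome and held 68.6% of control (65.0 to 72) and 68.3% of H89 summits (65.1 to 71.4), at 11.8 and 14.2 per Mb. The palest stained bands held 12.2 and 14.7 per Mb. The middle class held 7.21 and 9.01, and the darkest bands that chromosome 17 has held 3.89 (3.06 to 4.87) and 4.72 (3.80 to 5.79). The H89 to control ratio was between 1.20 and 1.25 in each of these 4 classes.

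Along the chromosome the summits ran from position 51536 to 81153466 in the control and from 106518 to 81153466 with H89, and the last base was the same in both. Neighbouring summits lay a median of 31.3 kb apart in the control and 26.8 kb with H89. Of the gaps between neighbours, 139 in the control (19.4%) and 178 with H89 (20.6%) were 5 kb or shorter. The longest gap spanned the centromere, from 21191079 to 25621482 in the control (4.43 Mb) and from 21191208 to 25621377 with H89. The next gap ran from 49337656 in 17q21.33 to 53045903 in 17q22 (3.71 Mb), and its H89 borders lay within 1 kb of the control ones. A gap of 3.33 Mb in the control lay between 66790231 in 17q24.2 and 70117023 in 17q24.3, and ended on the same base with H89.

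The 1-Mb windows richest in summits lay in 17p13.1 and 17q25. The window from 7000001 to 8000000 in 17p13.1 had the most control summits, 34, and 38 with H89. The window from 80000001 to 81000000 in 17q25.3 had the most H89 summits, 44, and 32 in the control. Next came 79000001 to 80000000 in 17q25.3 with 32 and 35, and 73000001 to 74000000 in 17q25.1 with 31 and 37. The 10 fullest of the 82 windows held 37.4% of control and 35.6% of H89 summits, while 12 windows in the control and 10 with H89 held none.

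Some summits formed tight runs in which each lay within 5 kb of the next. There were 26 runs of 3 or more in the control and 31 with H89. Runs and gaps were counted on chromosome 17 only, so they are not compared with chromosomes of like density. A run of 5 control summits in 17p13.1, from 8056845 to 8067559, scored from 2.38 to 12.3, and all 5 had an H89 partner. The longest H89 run, 6 summits in 17q25.3 from 80051843 to 80064143, scored from 2.37 to 8.15, and 4 of the 6 had a control partner. In 17p12, the strongest H89 site of the band, with a score of 41.2, stood in a run of 5 H89 summits from 14201110 to 14212631, of which 2 had a control partner. A run of 4 H89 summits in 17q21.31, from 41650058 to 41656452, had no control partner, and its scores were 2.37 to 3.87.

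Most control sites of chromosome 17 were called again with H89. Of the control summits, 627 (87.6%, 84.9 to 89.9) had an H89 summit within 1000 bp, against a background of 87.6% over all control summits of the genome. Of the H89 summits, 627 (72.5%, 69.4 to 75.4) had a control partner by the same limit, against 72.2% over all H89 summits. That left 89 control summits without a partner, where 12.4% were without one genome-wide, and 238 H89 summits, where 27.8% were. The shares on chromosome 17 were close to those of the genome. Mutually nearest summits formed 614 pairs with a median offset of 47 bp. In 439 of them the offset was 100 bp or less, and in 16 both summits fell on the same base. Over all 8189 pairs of the genome the median offset was 53 bp, with 5797 at 100 bp or less and 141 on the same base.

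Sharing varied among the bands mostly within counting error. In the control it was 97.5% in 17q21.2 (39 of 40) and 96.9% in 17q21.33 (31 of 32), and it was 78.8% in 17p13.3 (26 of 33) and 81.5% in 17q21.31 (44 of 54). With H89 it was 81.1% in 17q25.1 (73 of 90) and 80.6% in 17p13.1 (50 of 62). In 17q11.2, 29 of 49 H89 summits (59.2%) had a control partner, while 28 of its 31 control summits had an H89 partner. In 17q24.2 all 15 control summits had an H89 partner, and 15 of 25 H89 summits had a control partner.

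**Figure D2:**
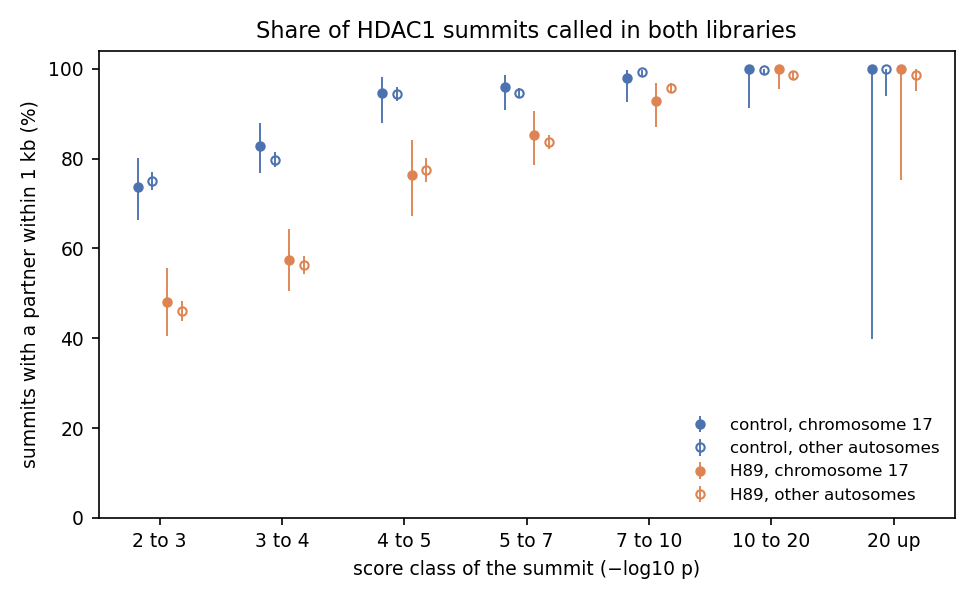
Share of HDAC1 summits with a summit of the other library within 1 kb (y axis, percent) in 7 score classes (x axis), for control (blue) and H89 (orange), on chromosome 17 (filled) and on the other autosomes (open). Lines are exact 95% intervals, and the shares on chromosome 17 rise from 73.7% (control) and 48.0% (H89) in the lowest class to 100% at scores of 10 or more.

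Sharing rose with the score. Among control summits scoring from 2 up to 3, 123 of 167 (73.7%, 66.3 to 80.2) had a partner, and among those from 7 up to 10, 93 of 95 did. Among H89 summits the same classes gave 86 of 179 (48.0%, 40.5 to 55.6) and 118 of 127 (92.9%). All 44 control and all 94 H89 summits with a score of 10 or more had a partner on chromosome 17. On the other autosomes, 1 of 538 control and 14 of 980 H89 summits of that strength had none. In every class the interval for chromosome 17 overlapped that of the other autosomes.

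The summits found in 1 list only were weak. Their median score was 3.11 in the control and 3.44 with H89, against 4.77 and 5.49 for summits with a partner. Over all summits of the genome the medians were 3.45 and 3.44 without a partner, and 4.77 and 5.49 with one. Of the 89 control-only summits, 7 scored 5 or more (124 of 1173 genome-wide), and 24 lay within 2 kb of an H89 summit. Of the 238 H89-only summits, 31 scored 5 or more (503 of 3213 genome-wide), and 146 lay more than 10 kb from any control summit. The distance counts are given for chromosome 17 only. The strongest H89-only summit was at 80929730 in 17q25.3, with a score of 9.92 and the nearest control summit 31.7 kb away. The next were at 44439284 in 17q21.31 (score 8.15, 124 kb away) and 80606541 in 17q25.3 (score 8, 48.0 kb away). The H89-only summits at 2879049 in 17p13.3 and 48450409 in 17q21.33 both scored 7.66.

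The 2 strongest control-only summits missed the pairing distance narrowly. The summit at 55939728 in 17q22 scored 7.67 and lay 1087 bp from an H89 summit, and the summit at 72746745 in 17q25.1 scored 7.67 and lay 1093 bp from one. The others named by rank were at 41919924 in 17q21.31 (score 5.51, 63.9 kb away), 15466708 in 17p12 (5.50, 130 kb away) and 19091443 in 17p11.2 (5.50, 51.5 kb away). A summit listed once is a call that crossed the caller's threshold in 1 library, and its absence from the other list does not show absence of HDAC1.

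Scores on chromosome 17 spanned 2.04 to 32.9 in the control and 2.03 to 43.5 with H89. The median was 3.97 in the control and 4.76 with H89, and the upper quartile was 5.89 and 7.22. On the other autosomes the medians were 4.77 and 4.76 and the upper quartiles 5.51 and 6.74. A score of 5 or more was reached by 36.7% of control summits of chromosome 17 (33.2 to 40.4), against 42.3% (41.2 to 43.4) on the other autosomes. With H89 the shares were 42.9% (39.6 to 46.3) and 46.3% (45.3 to 47.3). At 10 or more the shares were 6.15% (4.50 to 8.16) against 6.45% (5.93 to 7) in the control, and 10.9% (8.87 to 13.1) against 9.68% (9.11 to 10.3) with H89. Chromosome 17 thus had a lower share of control summits at 5 or more than the other autosomes, and a like share at 10 or more. The class from 5 up to 7 held 124 of its 716 control summits, against 1915 of 8342 on the other autosomes. From 7 up to 10 the numbers were 95 and 1075.

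**Figure D3:**
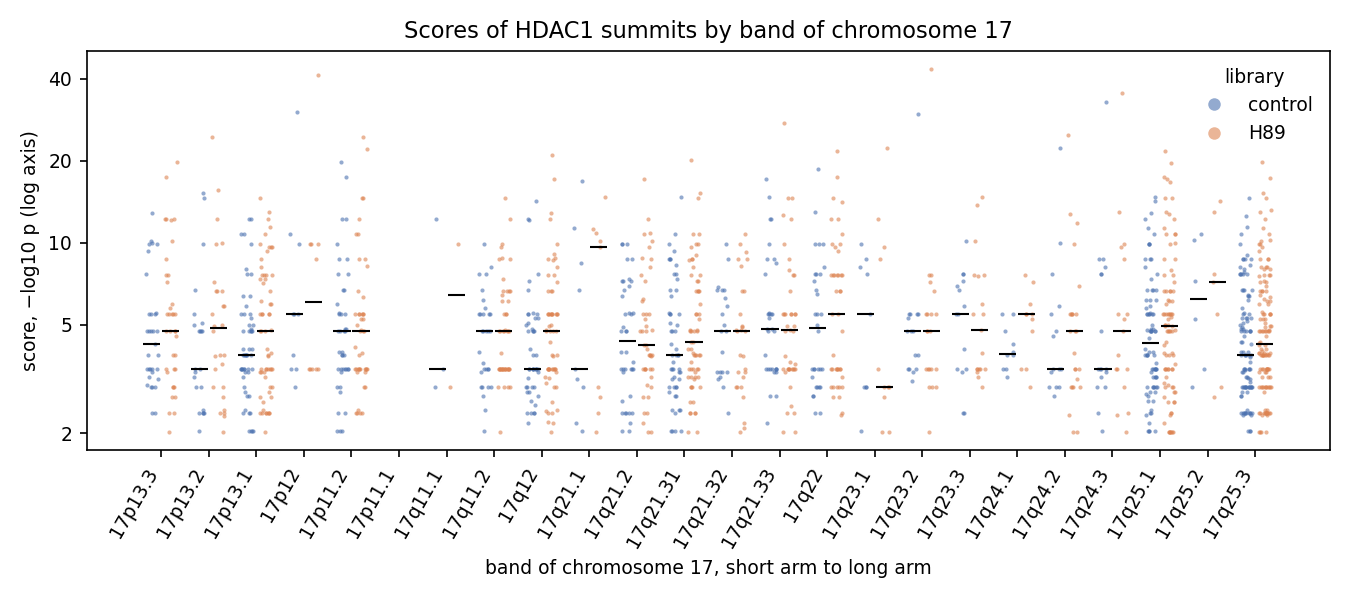
Score of every HDAC1 summit (y axis, −log10 p, log axis) by band of chromosome 17 (x axis), control in blue and H89 in orange, with the median of each list as a black line. The highest points stand in 17q23.2, 17p12 and 17q24.3, bands with few summits, while the crowded bands 17q25.1 and 17q25.3 reach 21.8 and 19.8 at most.

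The 3 strongest HDAC1 sites of chromosome 17 did not lie in its densest bands. The site with the highest mean score was in 17q23.2, with a control score of 29.7 (58754932) and an H89 score of 43.5 (58754895). The next was in the sparse band 17p12, at 14204249 in the control (30.2) and 14204268 with H89 (41.2). In 17q24.3, the control summit at 70409594 scored 32.9, the highest control score of the chromosome, and the H89 summit at 70409602 scored 35.6. These 3 sites stood apart from the rest, since no other reached a mean score of 30.

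In 17q24.2, the band of PRKAR1A, a site at 66508353 in the control scored 22.3 and its H89 partner at 66508305 scored 24.8. In 17q21.33 the scores were 17.2 at 47785460 and 27.5 at 47785481. Band 17p11.2 had 2 of the 10 strongest sites. At 20946625 the control score was 19.8, and 24.6 at the H89 partner 20946636. At 19281513 it was 17.5, and 22.2 at the partner 19281441. The remaining 3 were in 17q22 (18.7 at 56595416 and 21.8 at 56595429), 17p13.2 (15.2 at 5323281 and 24.6 at 5323272) and 17q25.1 (14.2 at 73975469 and 21.8 at 73975448). All 10 scored higher with H89, by 2.58 to 13.8. The ranking uses the H89 score, which favours sites that score high there.

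At sites called in both libraries the H89 score was more often the higher one. Of the 614 pairs, 325 (52.9%, 48.9 to 56.9) had an H89 score more than 0.1 above the control score, against 50.2% of all pairs of the genome. In 88 (14.3%, 11.7 to 17.4) the control score was more than 0.1 above, against 14.5% of all pairs. The other 201 lay within 0.1. The median difference, H89 minus control, was 0.91. On the other autosomes it was 0, with 49.5% of pairs (48.3 to 50.6) higher with H89, and the intervals of the shares overlap. Scores come in steps, so the median moves from step to step.

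**Figure D4:**
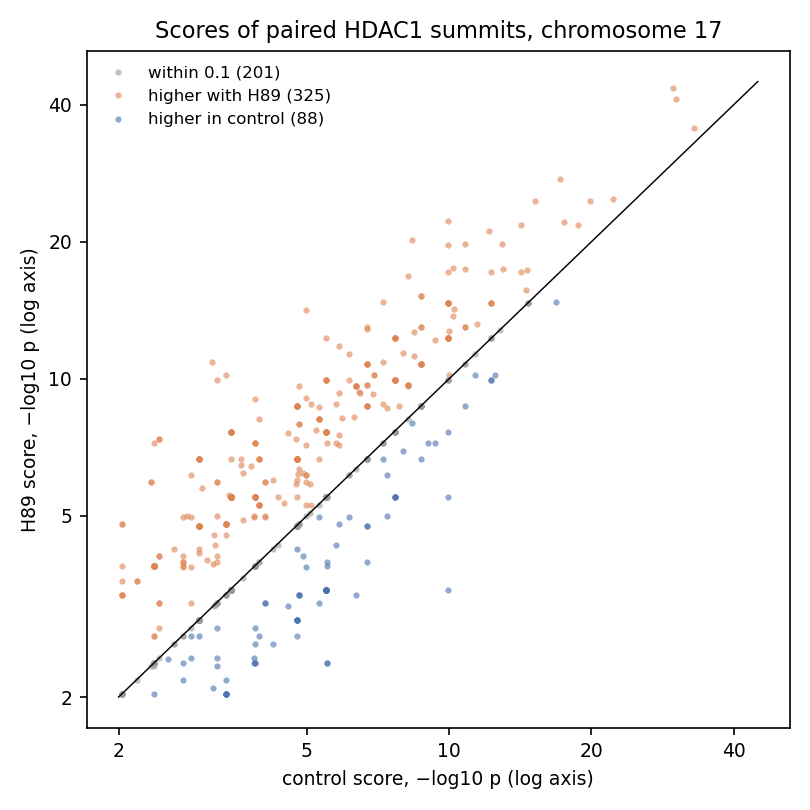
Control score (x axis) against H89 score (y axis) of the 614 paired HDAC1 summits of chromosome 17, both −log10 p on log axes, with the line of equal scores. Points more than 0.1 above the line are orange (325), those more than 0.1 below it blue (88) and the rest grey (201), and at control scores above 20 every point lies above the line.

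The imbalance was wider in stronger pairs. Where the mean of both scores was below 3, H89 was the higher in 12 of 73 pairs and the control in 17. On the other autosomes H89 was the higher in 132 of 690 such pairs and the control in 92. Scores of chromosome 17 begin at 2.04 in the control and 2.03 with H89, which limits differences in this class. Between 5 and 7 the numbers were 79 and 15 of 129. That is 61.2% with the higher score under H89 (52.3 to 69.7), against 48.7% (46.4 to 51.0) on the other autosomes. From 4 up to 5 the shares were 54.5% and 56.9%, and from 7 up to 10 they were 67.3% and 61.6%. The intervals overlapped in every class but the one from 5 up to 7. That class holds a common step, at 5.50 in the control and 5.49 with H89, which counts as equal when a pair has both. On this step lay 52 of 716 control summits of chromosome 17, against 1229 of 8342 on the other autosomes. The classes thus hold unlike mixes of steps, and their part in this difference was not tested. From 10 up to 20, H89 was the higher in 46 of 61 pairs and the control in 5. The median difference there was 2.74, and at 20 or more all 7 pairs were higher with H89. The other autosomes gave 499 and 84 of 677 pairs from 10 up to 20, and 78 and 7 of 95 at 20 or more.

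The share of pairs higher with H89 ranged widely between bands. It was highest among bands with at least 20 pairs in 17p13.2 (14 of 20 pairs, with 0 higher in the control), followed by 17q22 with 67.9% (19 of 28), 17p13.3 with 64% (16 of 25) and 17q12 with 61.5% (24 of 39). It was 41.4% in 17q21.33 (12 of 29, with 9 higher in the control) and lowest in 17q21.32 (8 of 20 pairs). In the 2 largest bands it was 52.6% in 17q25.3 (50 of 95) and 52.1% in 17q25.1 (37 of 71). In each of the 17 bands with at least 10 pairs, more pairs were higher with H89 than in the control. The bands come from the same 2 libraries and are not replicates. Over all 8189 pairs of the genome, 4113 were higher with H89 and 1184 in the control. The intervals of the band shares overlapped, for example 45.7 to 88.1 in 17p13.2 and 23.5 to 61.1 in 17q21.33.

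The largest differences between the libraries were at strong sites, and these were chosen for their difference. After the 17q23.2 site with its difference of 13.8, the largest was in 17q23.1, where the control summit 58156199 scored 9.94 and the H89 summit 58156125 scored 22.2. A site in 17q21.31 scored 8.33 at 41623444 and 20.1 at 41623315. In the other direction the differences were smaller. In 17q21.2 the control summit 40336141 scored 9.94 and its H89 partner 40336104 scored 3.44. The site at 106587 in 17p13.3 scored 9.94, and its H89 partner at 106518 scored 5.49. The highest site of a band was mostly the higher with H89. In the ERBB2 band 17q12 it scored 12.1 at 36902679 and 21.1 at 36902715. In 17p13.1 it scored 12.3 at 8059994 and 14.7 at 8059969. In the BRCA1 band 17q21.31 both scores were 14.7, at 41322212 and 41322191, and in the HOXB band 17q21.32 they were 9.94 at 45000354 and 9.92 at 45000308. In 17q21.1, a band with 9 summits in each list, the highest site scored 16.8 in the control at 38269765 and 14.8 with H89 at 38269840. The highest site of 17q11.1, a band with few summits, also scored more in the control, 12.3 at 25659838 against 9.92 at 25659807.

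The scores also carry information on the background at each site. Most scores equal the −log10 upper tail of a Poisson distribution for a whole number of counts and 1 of 7 background means. The lowest mean was 0.0269 for the control list and 0.0271 for the H89 list. A unit mean was 0.0473 and 0.0477, and further means lay at 2, 3, 5 and 10 times the unit and at 1. Within 0.0001 of such a step lay 89.1% of control and 88.4% of H89 summits of chromosome 17, against 92.1% and 91.4% on the other autosomes. Summits off the steps remain in the totals of the shares on the lowest mean, except where equal counts are compared. The counts and means below are implied by this reading and are not in the files. At equal counts a summit on a higher background has a lower score. Of the control summits on a step, 26.5% (23.1 to 30.1) on chromosome 17 had an implied count of 5 or more. The other autosomes had 21.6% (20.7 to 22.5). With H89 the shares were 31.9% (28.6 to 35.3) and 27.0% (26.1 to 27.9). Chromosome 17 thus had the higher share with an implied count of 5 or more, though not of scores of 5 or more. The count needed for a summit to be listed depends on the background. In the control a count of 2 on the lowest mean scored 3.45, and a count of 5 on a mean of 1 scored 2.44. On a mean of 1 lay 6.01% of control summits, against 4.28% on the other autosomes, and 5.90% against 4.81% with H89. The part of this background mix in the higher share was not tested.

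HDAC1 summits of chromosome 17 were less often on the lowest background than those elsewhere. In the control 205 of 716 (28.6%, 25.3 to 32.1) were on the lowest mean, against 42.7% (41.6 to 43.8) on the other autosomes. With H89 it was 264 of 865 (30.5%, 27.5 to 33.7) against 42.3% (41.4 to 43.3). The intervals do not overlap in either library. Among summits of score 5 or more, a limit added after seeing the data that removes summits on high background more often, the share was 43.7% in the control (37.6 to 50.0) against 61.9% (60.3 to 63.5) elsewhere, and 39.4% with H89 (34.3 to 44.5) against 56.7% (55.3 to 58.1). The mean of 3 units showed the opposite, with 9.22% (7.20 to 11.6) against 4.72% (4.28 to 5.20) in the control and 7.98% (6.26 to 9.99) against 4.44% (4.04 to 4.86) with H89. Among the 22 autosomes and X, chromosome 17 had the lowest share but 2 in both libraries. Chromosomes 19 (25.9% and 26.3%) and 16 (26.2% and 24.7%) were below it, and chromosomes 20 (34.6% and 33.5%) and X (57.5% and 60.2%) above.

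**Figure D5:**
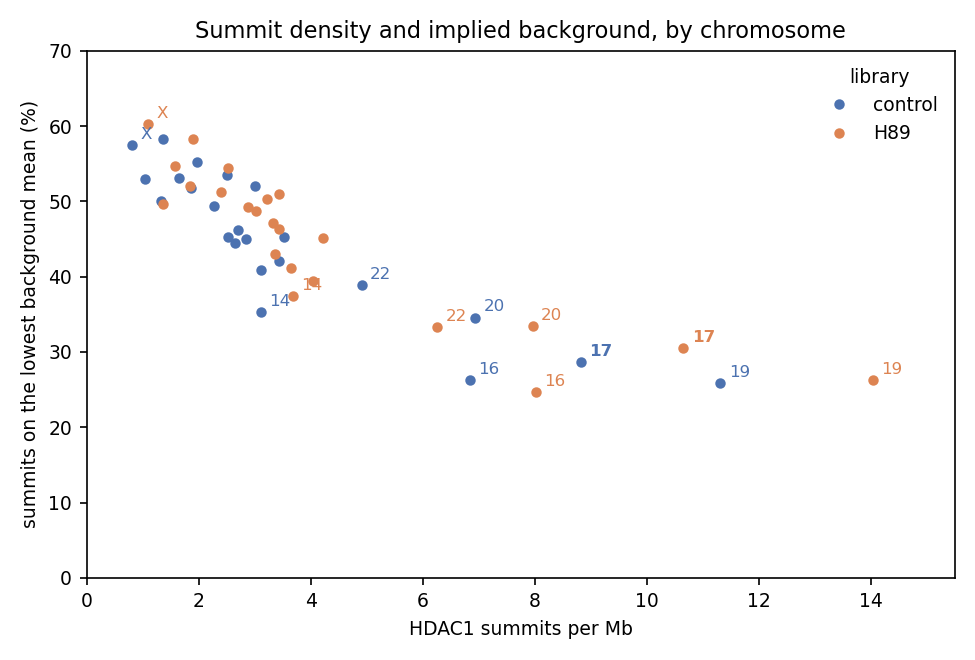
Share of HDAC1 summits on the lowest implied background mean (y axis, percent) against summits per Mb (x axis) for the 22 autosomes and X, control in blue and H89 in orange, with some chromosomes numbered. Chromosome 17 lies at 8.82 per Mb and 28.6% in the control and at 10.7 per Mb and 30.5% with H89, and the chromosomes with the densest summits have the lowest shares.

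At equal implied counts from 2 to 5 the share on the lowest mean was smaller on chromosome 17 in both libraries, but the intervals did not always separate. The gap was widest at a count of 3. In the control, 52 of 175 such summits of chromosome 17 (29.7%, 23.1 to 37.1) were on the lowest mean, against 51.2% (49.2 to 53.2) on the other autosomes, and the median scores were 4.77 and 5.50. With H89 the shares were 35.2% (28.2 to 42.7) and 51.8% (49.8 to 53.8), and the medians 4.76 and 5.49. At a count of 2, the largest class, the control shares were 42.9% (36.1 to 49.8) and 53.9% (51.9 to 55.8). The H89 shares at 2 were 47.4% (41.1 to 53.8) and 54.3% (52.5 to 56.1), and their intervals overlap. At 4 the intervals overlap in the control, with 31.0% (21.3 to 42.0) and 42.9% (39.9 to 45.9), and not with H89, with 32.3% (22.9 to 42.7) and 47.3% (44.5 to 50.1). At 5 they overlap in both libraries. The part of copy number in this background was not tested.

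The share on the lowest background also varied between the bands of chromosome 17. In 17q25.3, 14 of 110 control summits (12.7%) and 19 of 134 H89 summits (14.2%) were on the lowest mean. In 17q21.32 it was 2 of 21 and 3 of 28. In 17q21.33 it was 17 of 32 (53.1%) and 23 of 42 (54.8%), and in the sparse band 17p12 it was 7 of 10 and 9 of 10. The darkest bands of the chromosome had 48.0% (36.3 to 59.8) and 52.7% (42.0 to 63.3), against 26.7% (22.8 to 30.8) and 28.6% (25 to 32.4) in Giemsa-negative bands.

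The reading changes the order of the strongest sites. The 17q24.3 site had the highest control score, 32.9, with an implied count of 14 on the lowest mean. The 17q22 site at 56595416 had an implied control count of 16 and scored only 18.7, with a mean of 10 units. The 17q23.2 site had implied counts of 16 in the control and 22 with H89 on 2 units, the 17p12 site 13 and 17 on the lowest mean, and the 17q24.2 site 10 and 11 on the lowest mean.

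Paired sites mostly kept their background. Of the 530 pairs with both scores on a step, 491 (92.6%, 90.1 to 94.7) had the same mean in both lists, against 94.1% of all such pairs of the genome. Among these 491, the implied count was higher with H89 in 244 (49.7%, 45.2 to 54.2), against 47.9% of all such pairs of the genome. On the other autosomes it was higher with H89 in 47.2% (45.9 to 48.5), and the intervals overlap. It was higher in the control in 58 (11.8%, 9.09 to 15.0), against 12.3% of all such pairs, and equal in 189. The higher H89 count exceeded the control count by exactly 1 in 139 of the 244, against 2185 of the 3305 such pairs of the genome. Summed over the 491 pairs, the implied counts were 1941 in the control and 2276 with H89, a ratio of 1.17, and the other autosomes gave 1.16. The scaling of the libraries by the peak caller is unknown, so depth and occupancy cannot be told apart in these ratios.

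A few summits were listed on separate contigs of chromosome 17 and are outside the counts above. The contig with an alternative haplotype of the MAPT region of 17q21.31 held 4 control and 6 H89 summits. A pair of unlocalised contigs of the chromosome held 3 and 2 summits in each list.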

How the data were processed

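Summits of HDAC1 peaks from 1 control and 1 H89 library of HepG2 cells were used, and the IgG library was not analysed here. Bowtie 0.12.2 and the build hg19 stand in the submitters' processing notes. The sources used here do not state the peak caller, its control library, its threshold or how duplicate reads were treated. The deposited score of each summit is read as a −log10 p-value, from the values alone, as the files have no header. The lists were assigned to groups by their peak names.

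Bands came from the hg19 table of circlize 0.4.16, whose 24 chromosome lengths equal those of GenomeInfoDb for hg19. Positions are 1-based. Partners are summits of the other list within 1000 bp, and pairs are mutually nearest summits. Score differences up to 0.1 count as equal. For the implied counts, the commonest score of each list and the commonest score off its steps were each taken as the upper tail of 2 counts, which gave the lowest and the unit mean. The other means were not fitted. Named pairs are the 10 of highest mean score, 5 of largest difference in each direction, and the highest of each band with at least 10 summits over both lists; from each list, the 5 highest summits without a partner are named. Members, rules and bands were chosen with earlier results of these data known, and the reading of background means after the scores were seen. Functions were tested on simulated data. Alternatives were minimum scores, merging within 500 bp, other pairing and tie limits and other step tolerances. No test of H89 was possible with 1 library per condition. The tools were scipy 1.17.1, matplotlib 3.10.9, pandas 2.3.3 and numpy 2.4.6 under Python 3.11.15.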

Additional observations from a re-analysis of the deposited data

How the results depend on the processing

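Of 47 alternative values, 24 stayed within the 95% interval of the reported one. No paired analysis was possible because the labels carry no replicate number and each group has a single library. The H89 to control ratio of chromosome 17 was 1.41 at a score of 5 or more and 2.14 at 10 or more. The long-arm share was 68.2% (control) and 75.5% (H89) at 10 or more. The share of primary-chromosome summits on chromosome 17 was 6.83% and 7.21% at 5 or more, and 8.64% with H89 at 10 or more. Partner shares of control and H89 summits were 2.24% and 1.85% on the same base, 61.3% and 50.8% within 100 bp, 83.4% and 69.0% within 500 bp, 90.9% and 75.5% within 2000 bp, and 97.3% and 91.6% for summits of score 5 or more. Restricting to pairs whose mean score was at least 5, H89 was the higher in 67.1% and the control in 9.49%. The control-higher share was 18.8% among the 16 same-base pairs and 11.6% with scores within 1 taken as equal. Among summits of score 5 or more, 43.7% (control) and 39.4% (H89) were on the lowest mean, an alternative added after seeing the data, as were other tolerances and leaving out the last band of the long arm. The cause of these shifts was not tested, except that a minimum score removes summits on higher background by construction. Unknown depth limits every value.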
